A study of Mus musculus with 8 samples.

Results

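The data are poly(A) RNA sequencing libraries of mouse bone marrow derived macrophages, phagocytes grown in culture from marrow. They fall into 4 groups of 2 libraries: spermine with 3 h of IFN-β, spermine at 0 h, PBS with 3 h of IFN-β, and PBS at 0 h. The subject is the interaction of the 2 treatments, that is, for each gene, the log2 change over 3 h of IFN-β with spermine minus the same change with PBS. It was taken over all genes that reached 1 FPKM (fragments per kilobase of gene, on a scale set per library) in 2 or more of the 8 libraries, which holds 11421 of the 54532 genes of the deposited table. The submitters' sample labels name the control PBS, a salt buffer, while the text of the series names DMSO, and the labels' name is used. The doses of spermine and IFN-β, the length of the spermine treatment, the strain, sex and age of the mice and how many mice gave each library were not given in the sources used here. There was no 3 h group without IFN-β, so each 3 h change, below called a response, also holds whatever the 3 h alone did.

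IFN-β is a type I interferon that cells release when they sense a virus. It binds the receptor chains IFNAR1 and IFNAR2, whose kinases TYK2 and JAK1 activate the transcription factor complex ISGF3, which holds STAT2 and IRF9. ISGF3 binds interferon-stimulated response elements, and a further element of interferon-responsive promoters is the gamma-activated site. Spermine is a positively charged polyamine that cells make from spermidine and that binds nucleic acids and proteins. The series title names JAK1 as what cellular spermine acts on. An interaction of 0 means that the response is the same fold with spermine as with PBS. A negative one can come from a lower level at 3 h, a higher level at 0 h, or both with spermine, so all 4 levels are given.

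Rebuilt read totals lay between 15723437 and 17744844 per library. Deposited FPKM summed to 248254 and 253576 with PBS at 0 h and to 351671 and 345825 with PBS at 3 h. With spermine the sums were 316283 and 321894 at 0 h and 404833 and 400534 at 3 h. Levels below are on this scale, and small differences in level between groups depend on it. Macrophage markers summed to between 13900 and 14000 FPKM with spermine at 3 h and between 12600 and 13100 FPKM at 0 h, against 11400 to 12200 FPKM with PBS at 3 h and 11500 to 12400 FPKM at 0 h. None of these 10 markers had a called interaction by limma, 2 had an unadjusted p under 0.05 and voom called 1. Markers of other blood cells summed to at most 10.2 FPKM in any library. Dendritic cell markers, led by Xcr1, stood at 6.56 and 7.73 FPKM with spermine at 3 h and 2.34 FPKM in both libraries at 0 h, against 4.70 and 5.79 FPKM with PBS at 3 h and 1.22 and 1.45 FPKM at 0 h. None of the 8 is at 0 in all libraries, and of the 2 tested limma called none, none had an unadjusted p under 0.05 and voom called 1. The T cell kinase Lck was called lower, with 1.24 and 1.08 FPKM with spermine at 3 h and 0.103 and 0.0563 FPKM at 0 h, against 4.67 and 3.95 FPKM with PBS at 3 h and 0.0745 and 0.0847 FPKM at 0 h. Its interaction of -1.29 ± 0.16 (SE, limma adjusted p = 0.00509) was lost with voom (-1.82), and 4 of the 9 T and NK cell markers were at 0 in all libraries. The B cell marker Ighm was called lower at -0.84, a call lost without either library of spermine 3 h, spermine 0 h or PBS 0 h (-0.86 to -0.82) and without a filter. The part of these markers in the results was not tested. In bulk RNA, fewer cells with a transcript and less transcript per cell cannot be told apart.

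Spermine altered the size of the response of 1550 genes, 13.6% of the 11421 tested, at an adjusted p under 0.05 (limma, two-sided, Benjamini-Hochberg over all genes). The response was more positive with spermine for 665 genes (5.82%), below called higher, and more negative for 885 (7.75%), below called lower. Member counts of the lists below are to be read beside these shares. With PBS the response itself was negative for 579 of the higher genes and positive for 86. Among the lower genes it was positive for 811 and negative for 74. Higher can thus mean a smaller fall as well as a larger rise, and the PBS response is itself a term of the interaction. At an interaction of at least 1 log2 unit, 164 genes (1.44%) were higher and 258 (2.26%) lower. The median interaction of all genes was -0.0215 and the median standard error 0.157. Of the 885 lower genes, 521 had their wider gap between spermine and PBS at 3 h and 364 at 0 h. Of the 665 higher genes, 253 had the wider gap at 3 h and 412 at 0 h. On the untransformed FPKM scale the sign of the interaction is the opposite for 63 of the called genes, 45 higher and 18 lower. The balance depends on the scaling: 42.9% of called genes were higher, against 67.1% after rescaling to TPM, 49.6% after quantile normalization and 49.9% with limma voom on rebuilt reads. TPM rescaling called 8.8% of genes higher and 4.31% lower, voom 6.77% and 6.79%, and 29.6% of genes had an unadjusted p under 0.05. The median shift against the deposited scale was 0.138 for TPM, 0.0124 for quantile normalization and 0.0286 for voom, and interactions below are relative to the deposited scale. Without a single library the count of called genes was 554 (spermine 3 h replicate 1), 627 (spermine 3 h replicate 2), 753 (spermine 0 h replicate 1), 886 (PBS 3 h replicate 1), 647 (PBS 0 h replicate 1) or 520 (PBS 0 h replicate 2). The labels do not say whether the libraries of a group come from separate mice or cultures, so p-values rest on a library-to-library spread that could be technical only. A gene is called stable below if it kept its call and sign without each of the 8 libraries in turn and under each of the other alternatives listed for the processing.

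**Figure D1:**
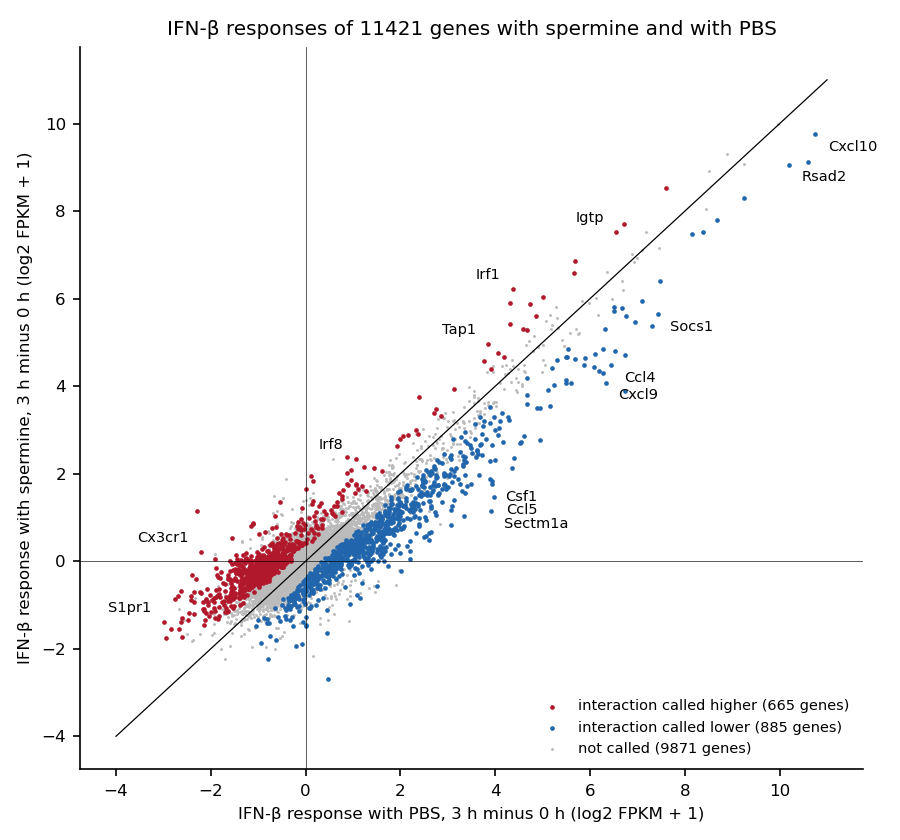
Response to IFN-β (3 h minus 0 h, log2 FPKM + 1) with spermine on the vertical axis and with PBS on the horizontal axis for the 11421 tested genes, each a point. Red points are the 665 genes with a called higher interaction, blue points the 885 called lower and grey points the rest. The line marks equal responses: Cxcl9, Ccl5 and Csf1 lie below it, Irf1, Irf8 and Igtp above it, and Cx3cr1 lies above it at a negative response with PBS.

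Promoters of 6 interferon-responsive genes with interactions of either sign are printed to show which of both elements they hold. The genes were chosen after their values were seen. Each sequence is the RefSeq window from 250 bases before to 50 after the gene's start in GRCm38.p6, read 5′ to 3′ on the gene's strand, with motif matches in capitals. The motifs searched on both strands were the interferon-stimulated response element, as GAAA, any 2 bases and GAAA again, and the gamma-activated site, as TTCNNNGAA. Irf1 (chr11:53769764-53770063, plus strand) and Irf8 (chr8:120736108-120736407, plus strand) each have 2 windows listed, and the one with most matches is shown. Igtp is at chr11:58199306-58199605 on the plus strand, Cxcl10 at chr5:92348840-92349139 on the minus strand, Rsad2 at chr12:26456403-26456702 on the minus strand, and Serpina3g at chr12:104235897-104236196 on the plus strand.
Irf1: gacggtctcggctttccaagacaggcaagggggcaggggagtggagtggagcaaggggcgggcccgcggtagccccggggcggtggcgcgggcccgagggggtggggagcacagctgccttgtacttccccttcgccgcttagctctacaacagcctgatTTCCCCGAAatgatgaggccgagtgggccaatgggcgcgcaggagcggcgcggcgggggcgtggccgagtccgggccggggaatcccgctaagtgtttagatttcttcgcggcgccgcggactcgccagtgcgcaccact
Irf8: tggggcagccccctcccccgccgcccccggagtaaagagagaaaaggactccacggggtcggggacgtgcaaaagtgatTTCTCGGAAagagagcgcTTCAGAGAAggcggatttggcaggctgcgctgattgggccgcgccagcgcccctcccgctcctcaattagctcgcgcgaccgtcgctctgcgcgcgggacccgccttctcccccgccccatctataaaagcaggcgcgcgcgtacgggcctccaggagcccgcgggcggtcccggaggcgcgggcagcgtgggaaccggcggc
Igtp: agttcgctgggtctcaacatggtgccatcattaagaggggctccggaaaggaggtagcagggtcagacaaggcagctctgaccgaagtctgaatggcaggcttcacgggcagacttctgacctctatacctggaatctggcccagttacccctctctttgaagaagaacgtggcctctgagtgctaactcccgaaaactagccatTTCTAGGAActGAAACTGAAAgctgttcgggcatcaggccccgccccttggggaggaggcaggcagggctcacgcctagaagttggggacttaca
Cxcl10: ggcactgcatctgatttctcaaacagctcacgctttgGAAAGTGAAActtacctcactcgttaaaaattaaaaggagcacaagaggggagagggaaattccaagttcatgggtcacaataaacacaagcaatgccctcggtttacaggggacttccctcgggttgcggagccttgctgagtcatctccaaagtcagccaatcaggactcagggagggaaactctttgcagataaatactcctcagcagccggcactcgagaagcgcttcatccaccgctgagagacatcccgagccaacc
Rsad2: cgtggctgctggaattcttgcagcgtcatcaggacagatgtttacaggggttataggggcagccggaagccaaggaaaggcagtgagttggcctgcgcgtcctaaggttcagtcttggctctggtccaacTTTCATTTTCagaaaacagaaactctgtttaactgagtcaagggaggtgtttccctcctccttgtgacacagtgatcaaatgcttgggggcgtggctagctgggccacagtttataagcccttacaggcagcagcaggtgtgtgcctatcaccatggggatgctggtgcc
Serpina3g: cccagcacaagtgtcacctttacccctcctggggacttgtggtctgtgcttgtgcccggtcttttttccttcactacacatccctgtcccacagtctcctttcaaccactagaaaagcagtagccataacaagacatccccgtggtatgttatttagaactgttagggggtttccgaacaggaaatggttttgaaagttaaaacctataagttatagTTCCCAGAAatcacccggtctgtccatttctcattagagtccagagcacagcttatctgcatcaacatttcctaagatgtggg
The windows of Irf1 and Irf8, both called higher, hold gamma-activated sites, with 1 match 90 bases before the start of Irf1 and 2 matches, 171 and 153 bases before it, in Irf8. Neither window holds the response element as spelled. The Igtp window, also of a higher gene, holds both, 45 and 34 bases before the start. Among lower genes, the Cxcl10 and Rsad2 windows hold the response element, 213 and 120 bases before the start, in Rsad2 on the opposite strand. The Serpina3g window holds a gamma-activated site 33 bases before the start. Over all windows of called genes, the response element was in 2.77% of those of higher genes and in 6.49% of those of lower genes, against 3.4% of the 9991 windows of protein-coding genes tested. For lower genes of at least 1 log2 unit the share was 9.94% (17 of 171 windows), and for higher genes of that size 4.7% (7 of 149). The gamma-activated site was in 7.3% of windows of higher genes and in 6.75% of those of lower genes, against 6.77% of all protein-coding windows. At 1 log2 unit or more this site was in 11.1% of windows of lower genes (19 of 171) and 6.71% of those of higher genes (10 of 149). Windows were found for 7848 of the 9810 protein-coding genes tested. With PBS the response was positive for 811 of the 885 lower genes and negative for 579 of the 665 higher genes. The shares were not taken apart by that response. They describe letters in a window of 300 bases and were not tested.

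Chemokines that call other leukocytes had weaker responses with spermine. Of 10 tested interferon-inducible chemokines, 8 were lower and none higher by limma (9 and 1 at an unadjusted p under 0.05), with a median interaction of -1.38 (-1.71 after TPM rescaling) against -0.02 over all genes (0.12 after TPM rescaling). Between 6 and 9 were lower in the fits without a single library, 7 after TPM rescaling and 5 with voom, and none was higher in any of these. Cxcl11 and Ccl12 are listed at 0 in all 4 libraries at 0 h, and the median without them was also -1.38. Ccl5 (ENSMUSG00000035042, chromosome 11, 83525778 to 83530518, minus strand, GRCm38), which draws T cells and monocytes, had 21.2 and 19.7 FPKM with spermine at 3 h and 6.98 and 6.59 FPKM at 0 h, against 87.8 and 80.1 FPKM with PBS at 3 h and 4.87 and 4.03 FPKM at 0 h. The 3 h libraries with spermine lie far below those with PBS, and the 0 h libraries with spermine lie above those with PBS. The interaction was -2.50 ± 0.14 (SE, limma adjusted p = 0.00122), and it was stable. Cxcl9, which attracts T cells through CXCR3, had 16.8 and 17.02 FPKM with spermine at 3 h and 0.0601 and 0.0547 FPKM at 0 h, against 92.98 and 74.2 FPKM with PBS at 3 h and 0.0579 and 0.0329 FPKM at 0 h. It was near 0 in all 4 libraries at 0 h, so its interaction of -2.25 ± 0.15 (SE, limma adjusted p = 0.00133) is a difference at 3 h. With limma voom the call was lost at -2.62. The related CXCR3 ligand Cxcl10 had 1378 and 1386 FPKM with spermine at 3 h and 0.429 and 0.781 FPKM at 0 h, against 2999 and 2869.6 FPKM with PBS at 3 h and 0.834 and 0.573 FPKM at 0 h. The groups separate at 3 h and overlap at 0 h. Its interaction of -0.99 ± 0.17 (SE, limma adjusted p = 0.0136) was lost without either spermine 3 h library (-0.991 and -0.999) or PBS 0 h replicate 2 (-0.88), and with a pseudocount of 0.1 (-0.87), TPM rescaling (-0.89) or voom (-0.81). Ccl4, which attracts monocytes and T cells, had 407 and 401 FPKM with spermine at 3 h and 18.02 and 16.4 FPKM at 0 h, against 683 and 591 FPKM with PBS at 3 h and 7.21 and 5.49 FPKM at 0 h. With spermine it was above PBS at 0 h and below it at 3 h, without overlap at either time, and the stable interaction was -1.97 ± 0.18 (SE, limma adjusted p = 0.00219). Ccl3 differed in form, with 242 and 231 FPKM with spermine at 3 h and 46.7 and 42.2 FPKM at 0 h, against 202 and 176 FPKM with PBS at 3 h and 17.6 and 17.4 FPKM at 0 h. It was higher with spermine at both times, but by a larger factor at 0 h, so that the interaction was -0.97 ± 0.12 (SE, limma adjusted p = 0.00509) although the rise in FPKM was 20.6 larger with spermine. The monocyte attractant Ccl2 averaged 115 ± 6.95 FPKM with spermine at 3 h and 3.43 ± 1.10 FPKM at 0 h, against 145 ± 3.61 FPKM with PBS at 3 h and 1.13 ± 0.131 FPKM at 0 h (SD, n = 2), with an interaction of -1.37 ± 0.22 (SE, limma adjusted p = 0.0118) that was lost without spermine 3 h replicate 2 (-1.31). Ccl12, a further CCR2 ligand of mice, was the one member with a positive value, 0.27, which did not pass (limma adjusted p = 0.151) and was -0.01 with voom.

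Among cytokines and ligands of the TNF family, 6 of 12 tested members were lower and 2 higher, with a median of -0.66 (-0.60 after TPM rescaling). The lower members numbered 6 in each of the fits without a single library and 4 with voom. Csf1 (ENSMUSG00000014599, chromosome 3, 107741048 to 107760469, minus strand, GRCm38), the growth factor on which macrophages depend, had 24.5 and 26.4 FPKM with spermine at 3 h and 7.03 and 6.51 FPKM at 0 h, against 32.1 and 32.2 FPKM with PBS at 3 h and 1.29 and 1.04 FPKM at 0 h. With spermine it was somewhat lower at 3 h and far higher at 0 h, without overlap at either time. The interaction of -2.17 ± 0.12 (SE, limma adjusted p = 0.00122) was stable. Tnf, the inflammatory cytokine, had 56.3 and 52.4 FPKM with spermine at 3 h and 26.2 and 27.5 FPKM at 0 h, against 29.6 and 29.7 FPKM with PBS at 3 h and 7.17 and 7.30 FPKM at 0 h. Spermine was above PBS at both times and the smaller factor of change with spermine gave a stable interaction of -0.90 ± 0.09 (SE, limma adjusted p = 0.00295), while the difference in FPKM between 3 h and 0 h was 5.13 larger with spermine. Tnfsf10, which encodes the death ligand TRAIL, had 41.1 and 42.8 FPKM with spermine at 3 h and 0.0344 and 0.0418 FPKM at 0 h, against 193 and 164 FPKM with PBS at 3 h and 0.158 and 0.113 FPKM at 0 h. It was under 1 FPKM in all libraries at 0 h, and at 3 h both spermine libraries lay far below both PBS libraries, for -1.93 ± 0.13 (SE, limma adjusted p = 0.00132). That call was lost with voom (-0.38). Il27, a subunit of an immune-regulating cytokine, averaged 6.80 ± 0.274 FPKM with spermine at 3 h and 0.196 ± 0.0269 FPKM at 0 h, against 31.5 ± 2.41 FPKM with PBS at 3 h and 0.411 ± 0.0371 FPKM at 0 h (SD, n = 2), with an interaction of -1.82 ± 0.12 (SE, limma adjusted p = 0.00132) that was lost with voom (-1.23). Il10, which restrains inflammation, averaged 5.67 ± 0.154 FPKM with spermine at 3 h and 1.63 ± 0.545 FPKM at 0 h, against 15.03 ± 1.41 FPKM with PBS at 3 h and 1.19 ± 0.133 FPKM at 0 h (SD, n = 2), and its interaction of -1.51 ± 0.21 (SE, limma adjusted p = 0.00688) was stable. So was that of Il18bp (-0.995), a decoy for IL-18. The fever cytokine Il6 ran the other way. It had 14.4 and 13.3 FPKM with spermine at 3 h and 0.0995 and 0.113 FPKM at 0 h, against 5.40 and 3.37 FPKM with PBS at 3 h and 0 and 0.0204 FPKM at 0 h. Both 3 h levels with spermine exceed both with PBS, and the interaction was 1.36 ± 0.24 (SE, limma adjusted p = 0.0157). It was lost without either spermine 3 h library (1.30 and 1.41), without spermine 0 h replicate 1 (1.35) and without either PBS 0 h library (1.37 and 1.34), without a filter (1.36), with a pseudocount of 0.1 (0.76) and after TPM rescaling (1.06), and voom turned it to -1.12. Its level at 0 h rests on few reads.

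The receptor chains, Stat2 and Irf9 had small positive interactions, and no interaction was called for the kinases. Of 13 tested genes 5 were higher and 1 lower, beside 5.82% and 7.75% of all genes, with a median of 0.29 (0.43 after TPM rescaling). In the fits without a single library between 0 and 4 were higher and none lower. Jak1 (ENSMUSG00000028530, chromosome 4, 101152367 to 101265282, minus strand, GRCm38) had 37.3 and 38.7 FPKM with spermine at 3 h and 37.8 and 33.4 FPKM at 0 h, against 37.6 and 34.98 FPKM with PBS at 3 h and 30.1 and 28.5 FPKM at 0 h. The 3 h libraries of both treatments overlap. The interaction was -0.20 ± 0.12 (SE, limma adjusted p = 0.288), which did not pass, with a 95% interval of -0.48 to 0.07. Tyk2, the other receptor-bound kinase, had 9.75 and 9.76 FPKM with spermine at 3 h and 6.52 and 8.46 FPKM at 0 h, against 17.5 and 21.2 FPKM with PBS at 3 h and 11.04 and 12.02 FPKM at 0 h. Spermine was below PBS at both times and the interaction was -0.34 ± 0.19 (SE, limma adjusted p = 0.277). Jak2, a kinase of the interferon-gamma receptor, gave -0.33 (limma adjusted p = 0.258). Stat2 had 164 and 170.0 FPKM with spermine at 3 h and 4.48 and 5.92 FPKM at 0 h, against 216 and 221 FPKM with PBS at 3 h and 13.2 and 11.3 FPKM at 0 h. With spermine it started lower and at 3 h came closer to PBS, with an interaction of 0.71 ± 0.17 (SE, limma adjusted p = 0.0398) that the fit kept without spermine 0 h replicate 2 alone. It lay between 0.54 and 0.81 without each of the other 7 libraries, and was also lost with a pseudocount of 5 (0.38), without a filter (0.71), after quantile normalization (0.66) and without a trend (0.71). The DNA-binding subunit Irf9 averaged 50.3 ± 0.698 FPKM with spermine at 3 h and 5.86 ± 0.836 FPKM at 0 h, against 45.96 ± 2.48 FPKM with PBS at 3 h and 8.11 ± 0.323 FPKM at 0 h (SD, n = 2). Its interaction was 0.54 ± 0.13 (SE, limma adjusted p = 0.0435), again kept only without spermine 0 h replicate 2 and between 0.42 and 0.60 without each of the others, and it was lost with a pseudocount of 0.1 (0.60), without a filter (0.54), after quantile normalization (0.48), without a trend (0.54) and with the replicate number as a block (0.54). The receptor chains Ifnar1 and Ifnar2 had interactions of 0.44 (limma adjusted p = 0.0337) and 0.47 (limma adjusted p = 0.0177). Ifnar1 lost its call without each of the 8 libraries in turn (0.38 to 0.49), without a filter and without a trend (0.44 each). Ifnar2 lost it without either PBS 0 h library (0.46 and 0.48), spermine 0 h replicate 1 (0.47) or either spermine 3 h library (0.49 and 0.45).

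Of 14 genes that end the signal, 2 were called higher and 1 lower by limma, beside 5.82% and 7.75% of all genes. At an unadjusted p under 0.05 the counts were 4 and 4. Without a single library 1 to 3 were higher and 0 to 2 lower. Ptpn6, which encodes the phosphatase SHP-1, had 29.1 and 30.4 FPKM with spermine at 3 h and 18.5 and 17.2 FPKM at 0 h, against 60.1 and 58.3 FPKM with PBS at 3 h and 63.6 and 62.7 FPKM at 0 h. It was lower with spermine in every library, and the gap was narrower at 3 h, so the interaction of 0.80 ± 0.09 (SE, limma adjusted p = 0.00386) was positive, and stable. Socs1, which inhibits JAK kinases, had 79.9 and 67.6 FPKM with spermine at 3 h and 0.249 and 0.775 FPKM at 0 h, against 158 and 251 FPKM with PBS at 3 h and 0.165 and 0.154 FPKM at 0 h. The PBS 3 h libraries differ more from each other than the spermine ones, but both are higher. Its interaction of -1.79 ± 0.34 (SE, limma adjusted p = 0.0197) was lost without either PBS 0 h library (-1.79 and -1.78), either spermine 3 h library (-1.90 and -1.67), without a filter (-1.79) and with voom (-2.87). Socs3, which binds cytokine receptors, had 91.7 and 79.9 FPKM with spermine at 3 h and 4.66 and 4.28 FPKM at 0 h, against 17.1 and 21.8 FPKM with PBS at 3 h and 0.816 and 0.91 FPKM at 0 h. It was higher with spermine in every library at both times, and its interaction of 0.54 ± 0.18 (SE, limma adjusted p = 0.0958) did not pass. Call and sign depended on the processing. Socs3 was called higher with a pseudocount of 5 (1.204) and without PBS 3 h replicate 2 (0.71). It turned to -0.11 with a pseudocount of 0.1 and to -0.20 with voom. Usp18, which removes ISG15 and silences IFNAR2, had 271 and 275 FPKM with spermine at 3 h and 1.45 and 1.38 FPKM at 0 h, against 441 and 429 FPKM with PBS at 3 h and 2.71 and 2.51 FPKM at 0 h. Levels with spermine were lower at both times, and the interaction was -0.09 ± 0.09 (SE, limma adjusted p = 0.53), with a 95% interval of -0.30 to 0.12. Usp18 was called lower with a pseudocount of 5 (-0.42) and after quantile normalization (-0.44). It turned positive, without a call, with a pseudocount of 0.1 (0.17), TPM rescaling (0.19) and voom (0.24).

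Interferon regulatory factors are transcription factors of the interferon response. Their list also holds Batf2, which is not a member of that family (0.46, limma adjusted p = 0.0867), and Irf9, already counted with ISGF3 above. Of its 8 tested members, 3 had stronger responses (Irf1, Irf8 and Irf9) and none a weaker one by limma. At an unadjusted p under 0.05 the counts were 4 and 2, and with voom 4 and 1. The median of the list was 0.35 (0.56 after TPM rescaling). Irf1 (ENSMUSG00000018899, chromosome 11, 53770014 to 53778374, plus strand, GRCm38), itself an interferon-induced activator whose promoter is printed above, had 262 and 253 FPKM with spermine at 3 h and 2.34 and 2.65 FPKM at 0 h, against 141 and 151 FPKM with PBS at 3 h and 6.33 and 5.84 FPKM at 0 h. With spermine it was lower than PBS in both libraries at 0 h and higher in both at 3 h. The interaction of 1.83 ± 0.11 (SE, limma adjusted p = 0.00132) was stable and is among the 10 largest positive ones of genes reaching a mean of 10 FPKM in a group. Irf8, needed for macrophage and dendritic cell development, had 70.1 and 69.02 FPKM with spermine at 3 h and 11.7 and 14.5 FPKM at 0 h, against 61.9 and 72.1 FPKM with PBS at 3 h and 30.97 and 32.4 FPKM at 0 h. The treatments overlap at 3 h and stand apart at 0 h, and the stable interaction was 1.27 ± 0.16 (SE, limma adjusted p = 0.00509). Irf7, which drives further interferon genes, had 422 and 406 FPKM with spermine at 3 h and 22.6 and 27.4 FPKM at 0 h, against 515 and 609 FPKM with PBS at 3 h and 22.005 and 23.3 FPKM at 0 h. The interaction of -0.57 ± 0.16 (SE, limma adjusted p = 0.0638) did not pass. It was called lower with the replicate number as a block (-0.57, limma adjusted p = 0.0369), with a filter at 5 FPKM (-0.57), after quantile normalization (-0.66) and with voom (-0.55).

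Antiviral effectors went both ways. Of 48 tested, 7 were higher and 13 lower (median -0.17), and this balance turned to 11 higher and 6 lower after TPM rescaling (median 0.00) and 11 higher and 5 lower with voom. Without a single library, 2 to 6 were higher and 5 to 11 lower. Rsad2 (ENSMUSG00000020641, chromosome 12, 26442746 to 26456452, minus strand, GRCm38), which encodes viperin, an enzyme that makes a chain-terminating nucleotide, had 2441 and 2638 FPKM with spermine at 3 h and 3.73 and 3.78 FPKM at 0 h, against 5125 and 4434 FPKM with PBS at 3 h and 3.23 and 2.92 FPKM at 0 h. At 3 h both spermine libraries were below both PBS libraries. At 0 h they were slightly above on the deposited scale, by a smaller factor than the FPKM sums of these groups differ. The interaction of -1.13 ± 0.13 (SE, limma adjusted p = 0.00354) was stable. Ifit1bl1, of the family that binds foreign RNA ends, averaged 971 ± 73.3 FPKM with spermine at 3 h and 0.749 ± 0.0674 FPKM at 0 h, against 2509 ± 318 FPKM with PBS at 3 h and 0.619 ± 0.074 FPKM at 0 h (SD, n = 2), with a stable interaction of -1.48 ± 0.15 (SE, limma adjusted p = 0.00285), although reads shared with its relatives make its level uncertain. Isg20, an RNA-digesting exonuclease, gave -1.26 and Ifitm6, of a family of membrane proteins that hinder viral entry, -1.15, both stable. Mx1, a GTPase that traps influenza nucleoprotein, averaged 645 ± 20.6 FPKM with spermine at 3 h and 1.90 ± 0.33 FPKM at 0 h, against 1274 ± 134 FPKM with PBS at 3 h and 2.11 ± 0.373 FPKM at 0 h (SD, n = 2). Its interaction of -0.88 ± 0.17 (SE, limma adjusted p = 0.0212) was lost without either spermine 3 h library (-0.85 and -0.91), spermine 0 h replicate 1 (-0.76), PBS 3 h replicate 1 (-0.77) or PBS 0 h replicate 2 (-0.75), with a pseudocount of 0.1 (-0.84), without a filter (-0.88), after TPM rescaling (-0.75) and with voom (-0.79).

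On the higher side, Dtx3l, a ubiquitin ligase that works with PARP9, had 156 and 165 FPKM with spermine at 3 h and 2.81 and 2.76 FPKM at 0 h, against 237 and 209 FPKM with PBS at 3 h and 10.8 and 9.72 FPKM at 0 h. Spermine libraries lay below PBS at both times, by a larger factor at 0 h. Its interaction of 1.10 ± 0.12 (SE, limma adjusted p = 0.00342) was stable, while on the untransformed scale the difference of the changes was -54.6 FPKM. Rtp4, a regulator of interferon signalling, was also higher and stable at 0.74 with levels of 292 ± 2.07 FPKM with spermine at 3 h and 6.37 ± 0.113 FPKM at 0 h, against 321 ± 15.5 FPKM with PBS at 3 h and 12.5 ± 1.09 FPKM at 0 h (SD, n = 2), and here too the untransformed difference was negative, at -23.0 FPKM. Parp14, which attaches ADP-ribose to proteins, was higher at 0.73 ± 0.13 (SE, limma adjusted p = 0.0151), a call lost without either spermine 3 h library (0.79 and 0.68) or PBS 0 h replicate 1 (0.65), and its untransformed difference was -38.7 FPKM. For Isg15 and Ifit1, often used as readouts of interferon, no interaction was called. Isg15, a ubiquitin-like tag, had 1205 and 1194 FPKM with spermine at 3 h and 6.79 and 9.96 FPKM at 0 h, against 865 and 1071 FPKM with PBS at 3 h and 6.76 and 7.55 FPKM at 0 h. The groups overlap at 0 h, and the interaction was 0.13 ± 0.24 (SE, limma adjusted p = 0.746). It turned to -0.11 without spermine 0 h replicate 1 and to -0.02 without PBS 3 h replicate 1, again without a call. Ifit1 had 1944 and 2164 FPKM with spermine at 3 h and 2.07 and 2.38 FPKM at 0 h, against 3307 and 2634 FPKM with PBS at 3 h and 6.66 and 4.09 FPKM at 0 h. Spermine lay below PBS at both times, and the interaction of 0.43 ± 0.28 (SE, limma adjusted p = 0.353) had a 95% interval of -0.24 to 1.10. With a pseudocount of 5 it was -0.01.

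Interferon-inducible GTPases, which attack vacuoles that shelter microbes, went both ways. Of 17 tested, 9 were lower and 4 higher (median -0.68, or -0.27 after TPM rescaling). The 1 member listed at 0 in a group left the median at -0.56 when taken out. The lower members were 7 guanylate-binding proteins (Gbp2, Gbp4, Gbp5, Gbp6, Gbp7, Gbp8 and Gbp11) and Iigp1 and Tgtp1 of the immunity-related GTPases, and the higher ones were Irgm1, Irgm2, Igtp and Ifi47, all immunity-related GTPases. Between 4 and 11 were lower and between 2 and 4 higher without a single library, and with voom 1 was lower and 4 were higher. Voom turned Gbp5 to 0.27 and Gbp7 to 0.49, and a pseudocount of 0.1 turned Gbp7 to 0.11, so the direction of these 2 depends on the processing. Gbp4 had 28.6 and 29.5 FPKM with spermine at 3 h and 0.0725 and 0.0293 FPKM at 0 h, against 89.5 and 72.8 FPKM with PBS at 3 h and 0.0583 and 0.0463 FPKM at 0 h. It was almost absent at 0 h, and at 3 h the spermine libraries lay well below the PBS ones, for -1.44 ± 0.15 (SE, limma adjusted p = 0.00285), a call lost with voom (-1.29). Gbp2 averaged 934 ± 58.3 FPKM with spermine at 3 h and 4.05 ± 0.349 FPKM at 0 h, against 1486 ± 156 FPKM with PBS at 3 h and 3.45 ± 0.563 FPKM at 0 h (SD, n = 2), and its -0.85 ± 0.17 (SE, limma adjusted p = 0.0206) was lost without either spermine 3 h library (-0.79 and -0.91), spermine 0 h replicate 1 (-0.78), PBS 3 h replicate 1 (-0.74) or PBS 0 h replicate 2 (-0.72), and without a filter (-0.85). Irgm1, which regulates the other members of its family, had 509 and 545 FPKM with spermine at 3 h and 3.39 and 3.66 FPKM at 0 h, against 445 and 382 FPKM with PBS at 3 h and 7.54 and 6.48 FPKM at 0 h. With spermine it was lower at 0 h and higher at 3 h, without overlap, and the interaction of 1.17 ± 0.14 (SE, limma adjusted p = 0.00479) was stable. Igtp, whose printed promoter holds both motifs, had 652 and 673 FPKM with spermine at 3 h and 2.48 and 2.77 FPKM at 0 h, against 579.7 and 521 FPKM with PBS at 3 h and 4.73 and 5.01 FPKM at 0 h. It showed the same arrangement, at 0.97 ± 0.11 (SE, limma adjusted p = 0.00388), also stable. Members of both families resemble each other in sequence, and the handling of reads they share was not given in the sources used here.

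**Figure D2:**
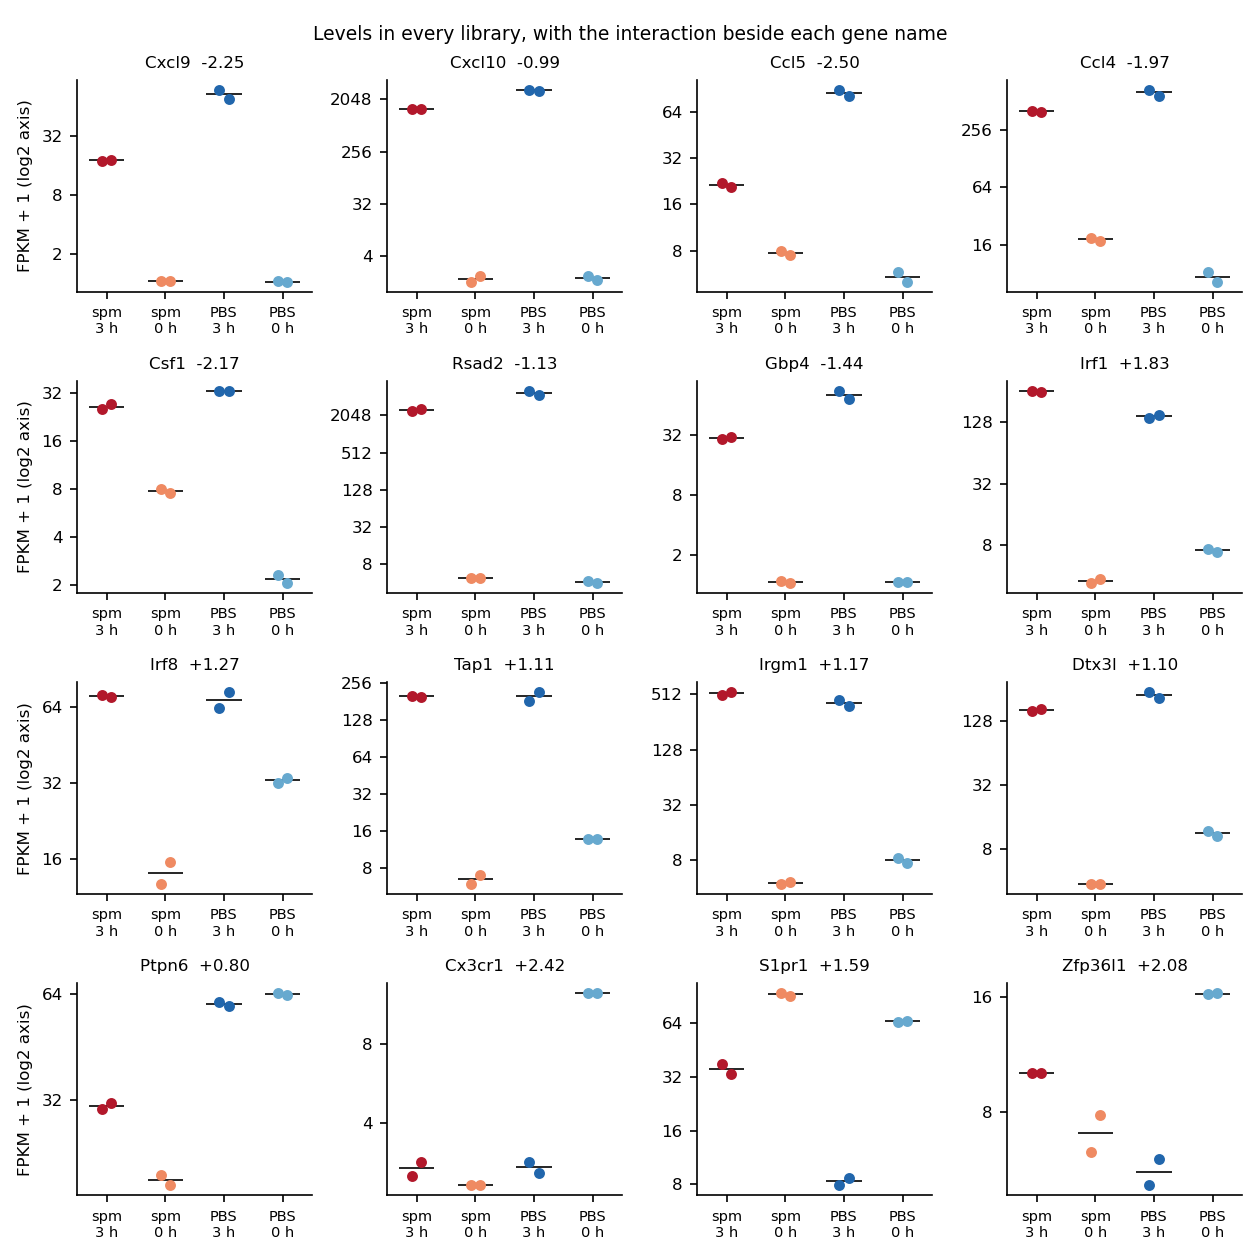
Level of 16 genes in each of the 8 libraries, as FPKM + 1 on a log2 axis that differs between panels, with points for libraries, bars for the mean of 2 and the interaction beside the name. In the panels of Cxcl9, Cxcl10, Rsad2 and Gbp4 the treatments differ mainly at 3 h, and in those of Irf8, Tap1 and Cx3cr1 mainly at 0 h.

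Of 24 tested genes of antigen presentation by MHC class I, 6 were lower and 1 higher by limma, beside 7.75% and 5.82% of all genes. The median was -0.28, or -0.13 after TPM rescaling. Without a single library 1 to 4 were lower and 1 higher. After TPM rescaling 3 were lower and 2 higher, and with voom 4 and 2, so the balance depends on the scaling. The gene higher by limma was Tap1, a subunit of the pump that carries peptides into the endoplasmic reticulum. It had 202 and 198 FPKM with spermine at 3 h and 4.92 and 6.04 FPKM at 0 h, against 184 and 218 FPKM with PBS at 3 h and 12.9 and 12.96 FPKM at 0 h. The treatments overlap at 3 h, and spermine was lower at 0 h, for a stable 1.11 ± 0.15 (SE, limma adjusted p = 0.00717). H2-T24, a non-classical class I chain, had 23.002 and 24.4 FPKM with spermine at 3 h and 1.38 and 1.36 FPKM at 0 h, against 73.8 and 71.6 FPKM with PBS at 3 h and 3.06 and 3.32 FPKM at 0 h. It was lower with spermine at both times and by more at 3 h, for -0.76 ± 0.10 (SE, limma adjusted p = 0.00565), lost with voom (-0.38). None of 8 MHC class II genes passed by limma in the full fit, in any of the fits without a single library or with voom (median 0.01), and 1 had an unadjusted p under 0.05. Of 23 genes of nucleic acid sensing and lytic cell death, 6 were lower and none higher by limma (10 and none at an unadjusted p under 0.05, 3 and none with voom). Their median was -0.30 (-0.14 after TPM rescaling), and 1 to 8 were lower without a single library. Tlr3, the endosomal receptor for double-stranded RNA, had 24.4 and 27.3 FPKM with spermine at 3 h and 1.31 and 1.11 FPKM at 0 h, against 112 and 87.5 FPKM with PBS at 3 h and 3.09 and 2.78 FPKM at 0 h. It was lower with spermine in every library and by more at 3 h. The interaction of -1.06 ± 0.18 (SE, limma adjusted p = 0.0138) was lost without spermine 3 h replicate 1 (-0.99) or PBS 0 h replicate 2 (-1.01), with a pseudocount of 0.1 (-0.72), after TPM rescaling (-0.72) and with voom (-0.62). Nlrp3, the inflammasome sensor, had 31.5 and 31.3 FPKM with spermine at 3 h and 33.1 and 32.1 FPKM at 0 h, against 28.998 and 29.4 FPKM with PBS at 3 h and 18.97 and 19.7 FPKM at 0 h. The spermine libraries stayed within 31.3 to 33.1 FPKM at both times, and the stable interaction was -0.62 ± 0.08 (SE, limma adjusted p = 0.00624).

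NF-κB inflammatory genes had 8 lower and 2 higher of 22 (median -0.37, or -0.15 after TPM rescaling), and 4 to 7 lower without a single library. Over all genes 7.75% were lower and 5.82% higher. Tnfaip3, which encodes A20, an inhibitor of NF-κB that NF-κB itself induces, had 6.32 and 6.63 FPKM with spermine at 3 h and 7.49 and 6.73 FPKM at 0 h, against 11.4 and 9.86 FPKM with PBS at 3 h and 3.99 and 4.15 FPKM at 0 h. Its level with spermine was above PBS at 0 h and below it at 3 h, for a stable -1.31 ± 0.13 (SE, limma adjusted p = 0.00285). Rel, an NF-κB subunit, had 11.8 and 12.8 FPKM with spermine at 3 h and 11.03 and 8.93 FPKM at 0 h, against 32.5 and 26.02 FPKM with PBS at 3 h and 9.36 and 8.93 FPKM at 0 h. With PBS the 3 h libraries stand above all others, and the interaction of -1.29 ± 0.19 (SE, limma adjusted p = 0.00779) was stable. Nos2, the inducible nitric oxide synthase, had 0.615 and 0.917 FPKM with spermine at 3 h and 0.0137 and 0 FPKM at 0 h, against 3.09 and 3.31 FPKM with PBS at 3 h and 0 and 0 FPKM at 0 h. It was detectable mainly at 3 h and lower there with spermine, for -1.26 ± 0.18 (SE, limma adjusted p = 0.0072), a call lost with a pseudocount of 0.1 (-2.04) and with voom (-3.13). The 2 higher members were Tnfaip2 (0.90, stable) and the adhesion molecule Icam1 (0.80, lost without either spermine 3 h library, 0.80 each, or PBS 0 h replicate 2, 0.77).

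Among genes of proteins that bind AU-rich elements and destabilise cytokine mRNAs, Zfp36l1 had an interaction among the strongest positive ones, but the list went both ways. Of 12 genes listed for inflammatory mRNA decay 4 were higher and 3 lower (median 0.31, or 0.46 after TPM rescaling), beside 5.82% and 7.75% of all genes. The lower ones were Zc3h12c (-0.78), Rc3h2 (-0.69) and the AU-rich element binder Hnrnpd (-0.44), and none of these 3 calls was stable. The higher calls were not all kept either. Without a single library between 1 and 3 members were higher and between 0 and 3 lower. Khsrp, which also binds AU-rich elements, was not called (0.04). The list also holds Tnip1 and Tnip3, not called, which are not decay factors. Zfp36l1, a decay factor of the tristetraprolin family, had 9.15 and 9.09 FPKM with spermine at 3 h and 5.29 and 6.84 FPKM at 0 h, against 4.15 and 5.03 FPKM with PBS at 3 h and 15.2 and 15.4 FPKM at 0 h. With PBS the 3 h libraries were below the 0 h ones, and with spermine above. Its interaction of 2.08 ± 0.17 (SE, limma adjusted p = 0.00191) was stable. Its relative Zfp36l2 had 321 and 309 FPKM with spermine at 3 h and 161 and 209.8 FPKM at 0 h, against 83.8 and 105 FPKM with PBS at 3 h and 133 and 159 FPKM at 0 h. Levels with spermine exceeded PBS in every library, most at 3 h. The interaction of 1.40 ± 0.23 (SE, limma adjusted p = 0.0122) was lost without either spermine 3 h library (1.37 and 1.43) and without PBS 0 h replicate 2 (1.27).

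Receptors by which macrophages find and take up their targets moved in both directions, with 5 higher and 7 lower of 29 (median 0.03). The shares over all genes were 5.82% higher and 7.75% lower. The largest positive interaction among genes with a mean of at least 10 FPKM in a group was that of Cx3cr1 (ENSMUSG00000052336, chromosome 9, 119901616 to 120069879, minus strand, GRCm38), the fractalkine receptor. It had 1.52 and 1.86 FPKM with spermine at 3 h and 1.33 and 1.32 FPKM at 0 h, against 1.84 and 1.58 FPKM with PBS at 3 h and 11.5 and 11.5 FPKM at 0 h. The PBS 0 h libraries stand alone, and all others lie near each other. The interaction of 2.42 ± 0.13 (SE, limma adjusted p = 0.00122) was stable. S1pr1, which senses sphingosine-1-phosphate, had 36.6 and 32.3 FPKM with spermine at 3 h and 93.7 and 90.2 FPKM at 0 h, against 6.87 and 7.70 FPKM with PBS at 3 h and 64.004 and 65.01 FPKM at 0 h. It was lower at 3 h in both treatments, by a larger factor with PBS, and the stable interaction was 1.59 ± 0.12 (SE, limma adjusted p = 0.00153), with an untransformed difference of only -0.214 FPKM. Cxcr4, the receptor for CXCL12, had 49.8 and 46.7 FPKM with spermine at 3 h and 108 and 98.8 FPKM at 0 h, against 53.3 and 47.3 FPKM with PBS at 3 h and 241 and 216 FPKM at 0 h. The treatments overlap at 3 h and not at 0 h, for a stable 1.08 ± 0.13 (SE, limma adjusted p = 0.00473). C5ar1, a receptor for the complement fragment C5a, was likewise higher and stable, at 0.77, with a mean of 76.8 ± 0.806 FPKM with spermine at 3 h and 129 ± 4.75 FPKM at 0 h, against 69.3 ± 0.361 FPKM with PBS at 3 h and 199 ± 7.54 FPKM at 0 h (SD, n = 2). The Fc receptor Fcgr4 was lower, with 214 and 229 FPKM with spermine at 3 h and 47.8 and 42.2 FPKM at 0 h, against 418 and 372 FPKM with PBS at 3 h and 38.6 and 34.8 FPKM at 0 h. At 3 h the spermine libraries lay below PBS, for a stable -1.11 ± 0.14 (SE, limma adjusted p = 0.00479). P2ry12, a receptor for ADP, averaged 1.67 ± 0.222 FPKM with spermine at 3 h and 0.689 ± 0.333 FPKM at 0 h, against 11.5 ± 3.34 FPKM with PBS at 3 h and 0.967 ± 0.403 FPKM at 0 h (SD, n = 2), and its -1.98 ± 0.33 (SE, limma adjusted p = 0.0132) was lost without spermine 3 h replicate 1 (-1.90) or PBS 0 h replicate 2 (-1.77).

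The other genes with the largest interactions and a mean of at least 10 FPKM in a group had diverse roles. Sectm1a had the most negative one. It had 1.65 and 0.837 FPKM with spermine at 3 h and 0 and 0 FPKM at 0 h, against 14.9 and 13.6 FPKM with PBS at 3 h and 0.0258 and 0 FPKM at 0 h. It was listed at 0 or near it in every 0 h library, and at 3 h spermine lay far below PBS, for -2.77 ± 0.24 (SE, limma adjusted p = 0.00197), a call lost with voom (-3.05). Lipg, the endothelial lipase, had 25.96 and 28.2 FPKM with spermine at 3 h and 0.0797 and 0.0581 FPKM at 0 h, against 105 and 113 FPKM with PBS at 3 h and 0.0115 and 0.0524 FPKM at 0 h. It has the same form and a stable interaction of -2.03 ± 0.11 (SE, limma adjusted p = 0.00122). Mmp13, a collagenase, averaged 61.1 ± 3.32 FPKM with spermine at 3 h and 8.16 ± 1.71 FPKM at 0 h, against 117 ± 22.05 FPKM with PBS at 3 h and 2.83 ± 0.826 FPKM at 0 h (SD, n = 2), with an interaction of -2.18 ± 0.28 (SE, limma adjusted p = 0.00565). Serpina3g, a protease inhibitor whose promoter is printed above, averaged 20.3 ± 0.161 FPKM with spermine at 3 h and 0.0848 ± 0.0829 FPKM at 0 h, against 77.8 ± 8.57 FPKM with PBS at 3 h and 0.0104 ± 0.0147 FPKM at 0 h (SD, n = 2), at -1.99 ± 0.14 (SE, limma adjusted p = 0.00133), which voom lost at -3.90. Scimp, an adaptor of immune receptors, and I830077J02Rik gave -1.998 and -2.22, both stable.

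On the positive side, Sesn1, which restrains mTORC1, had 1.27 and 1.25 FPKM with spermine at 3 h and 2.82 and 2.98 FPKM at 0 h, against 2.57 and 2.19 FPKM with PBS at 3 h and 21.8 and 20.1 FPKM at 0 h. It was far lower with spermine at 0 h than with PBS, and the gap was narrower at 3 h. The interaction of 1.92 ± 0.12 (SE, limma adjusted p = 0.00132) was stable. Enc1, an actin-binding Kelch protein, averaged 9.88 ± 1.29 FPKM with spermine at 3 h and 5.19 ± 0.361 FPKM at 0 h, against 18.4 ± 0.425 FPKM with PBS at 3 h and 42.3 ± 0.348 FPKM at 0 h (SD, n = 2), with 1.97 ± 0.13 (SE, limma adjusted p = 0.00132). Fzd7, a Wnt receptor, had 30.3 and 29.7 FPKM with spermine at 3 h and 6.79 and 7.22 FPKM at 0 h, against 14.2 and 14.8 FPKM with PBS at 3 h and 12.3 and 14.3 FPKM at 0 h. The spermine 3 h libraries stand above all others, and the interaction was 1.83 ± 0.12 (SE, limma adjusted p = 0.00132). Maf, a transcription factor of differentiated macrophages, had 30.95 and 32.7 FPKM with spermine at 3 h and 7.69 and 8.88 FPKM at 0 h, against 25.3 and 28.1 FPKM with PBS at 3 h and 21.9 and 25.9 FPKM at 0 h. It was lower with spermine at 0 h and slightly higher at 3 h, for 1.67 ± 0.15 (SE, limma adjusted p = 0.00234). The progestin receptor Paqr7 (1.90), the anion transporter Slc26a11 (1.89) and the MAP kinase phosphatase Dusp7 (1.73) complete the list, and all of these positive interactions were stable.

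Lists of stress, metabolic and polyamine genes had medians between -0.20 and 0.16, against -0.02 over all genes, except mitochondrially encoded mRNAs at -0.40. Some lists held more calls than the shares over all genes, 5.82% higher and 7.75% lower. Of 18 p53 targets 4 were higher and 3 lower (median 0.08). Without a single library 2 to 3 of these were higher and 1 to 3 lower. Of 20 polyamine genes 1 was higher and 2 lower (median 0.02), each of them lost without 5 or more of the 8 libraries. They were the spermidine synthase Srm (0.68, between 0.55 and 0.80 without the libraries that ended the call), the spermine synthase Sms (-0.70, between -0.73 and -0.56) and the polyamine transporter family member Atp13a3 (-0.63, between -0.66 and -0.59). Srm was also lost with a pseudocount of 0.1 (0.79), without a filter (0.68), without a trend (0.68) and with the replicate block (0.68), and Sms without a filter (-0.70). Odc1, the first enzyme of polyamine synthesis, had 44.8 and 44.5 FPKM with spermine at 3 h and 45.1 and 43.5 FPKM at 0 h, against 23.99 and 21.4 FPKM with PBS at 3 h and 16.95 and 17.9 FPKM at 0 h. Spermine stood above PBS in every library, and the interaction of -0.35 ± 0.10 (SE, limma adjusted p = 0.0702) did not pass. Without PBS 3 h replicate 2 it did (-0.43). Sat1, which acetylates spermine for export, averaged 301 ± 1.03 FPKM with spermine at 3 h and 157 ± 4.80 FPKM at 0 h, against 211 ± 12.8 FPKM with PBS at 3 h and 98.6 ± 3.09 FPKM at 0 h (SD, n = 2), with an interaction of -0.16 ± 0.09 (SE, limma adjusted p = 0.307). Hmox1, the haem-degrading NRF2 target, had 11541 and 11790.0 FPKM with spermine at 3 h and 11283 and 10682 FPKM at 0 h, against 617 and 578 FPKM with PBS at 3 h and 490.2 and 449 FPKM at 0 h. It was far higher with spermine at both times, and the interaction of -0.26 ± 0.11 (SE, limma adjusted p = 0.153) did not pass. Quantile normalization turned it to 0.34, also without a call. Of 25 NRF2 targets, 3 were higher and 3 lower, beside 5.82% and 7.75% of all genes (median 0.16, or 0.32 after TPM rescaling). Srxn1, which repairs peroxiredoxins, had 776 and 794 FPKM with spermine at 3 h and 1181 and 1142 FPKM at 0 h, against 61.9 and 63.5 FPKM with PBS at 3 h and 145 and 145 FPKM at 0 h. It stood far above PBS with spermine at both times and was lower at 3 h in both treatments, for a stable 0.63 ± 0.08 (SE, limma adjusted p = 0.00509).

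Of 23 tested genes of the integrated stress response, 4 were higher and 1 lower, beside 5.82% and 7.75% of all genes. Without a single library, between 0 and 4 were higher and 1 was lower. The lower gene was Mthfd2, of mitochondrial folate metabolism. It had 17.3 and 17.9 FPKM with spermine at 3 h and 16.2 and 15.6 FPKM at 0 h, against 21.4 and 18.7 FPKM with PBS at 3 h and 6.52 and 5.75 FPKM at 0 h. The PBS 0 h libraries stand below all others, and the stable interaction was -1.42 ± 0.13 (SE, limma adjusted p = 0.00219). Hspa5, the chaperone BiP, had 301 and 301 FPKM with spermine at 3 h and 196 and 183 FPKM at 0 h, against 239.8 and 222 FPKM with PBS at 3 h and 78.8 and 77.8 FPKM at 0 h. Spermine was above PBS at both times and by more at 0 h, for a stable -0.88 ± 0.09 (SE, limma adjusted p = 0.00333). Pfkfb3, which speeds glycolysis, had 71.9 and 75.6 FPKM with spermine at 3 h and 21.9 and 21.1 FPKM at 0 h, against 45.6 and 43.3 FPKM with PBS at 3 h and 4.995 and 4.97 FPKM at 0 h. Its levels were likewise higher with spermine at both times, and the stable interaction was -1.19 ± 0.09 (SE, limma adjusted p = 0.00164), although the untransformed change was 12.8 FPKM larger with spermine. In sterol metabolism, Ch25h, which makes the antiviral lipid 25-hydroxycholesterol, had 40.7 and 42.7 FPKM with spermine at 3 h and 0.537 and 0.529 FPKM at 0 h, against 98.03 and 98.9 FPKM with PBS at 3 h and 0.162 and 0 FPKM at 0 h. At 3 h the spermine libraries lay below PBS, for a stable -1.73 ± 0.12 (SE, limma adjusted p = 0.00133). None of 29 oxidative phosphorylation genes passed by limma, with voom or at an unadjusted p under 0.05 (median 0.08). The same held for 13 mitochondrially encoded mRNAs, at a median of -0.40.

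**Figure D3:**
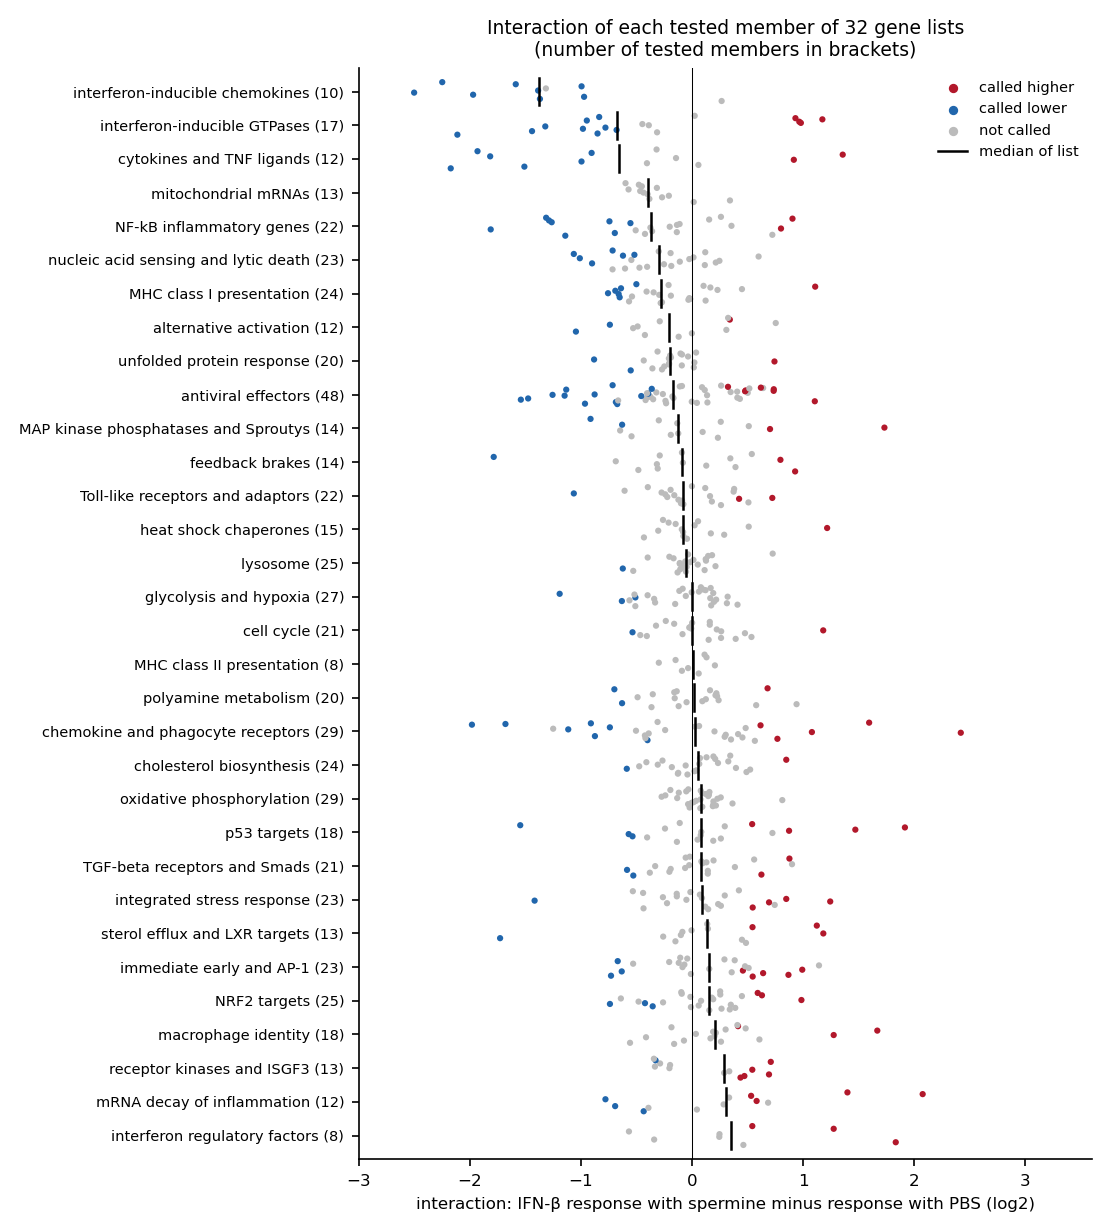
Interaction (horizontal axis, log2) of each tested member of 32 gene lists, with red points called higher, blue points called lower, grey points not called and a black bar at the list's median. Chemokines, at -1.38, have the lowest median and the list of interferon regulatory factors, which also holds Batf2, the highest, at 0.35.

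The called genes named here can be set out by the gap between treatments at each time. Cxcl9 had a gap of -2.23 log2 units at 3 h and 0.02 at 0 h, and Sectm1a one of -2.79 and -0.02. For Csf1 the gap was -0.33 at 3 h and 1.84 at 0 h. Irf8 and Tap1 show the reverse, with 0.06 and 0.00 at 3 h and -1.22 and -1.11 at 0 h. Cx3cr1 had -0.01 at 3 h and -2.43 at 0 h. In Irf1 the gap changed side, at 0.81 at 3 h and -1.02 at 0 h, and so it did in Ccl4, at -0.65 and 1.32. For Srxn1 the gap was 3.63 at 3 h and 3.00 at 0 h, so a called interaction can sit on a far larger difference present at both times.

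**Figure D4:**
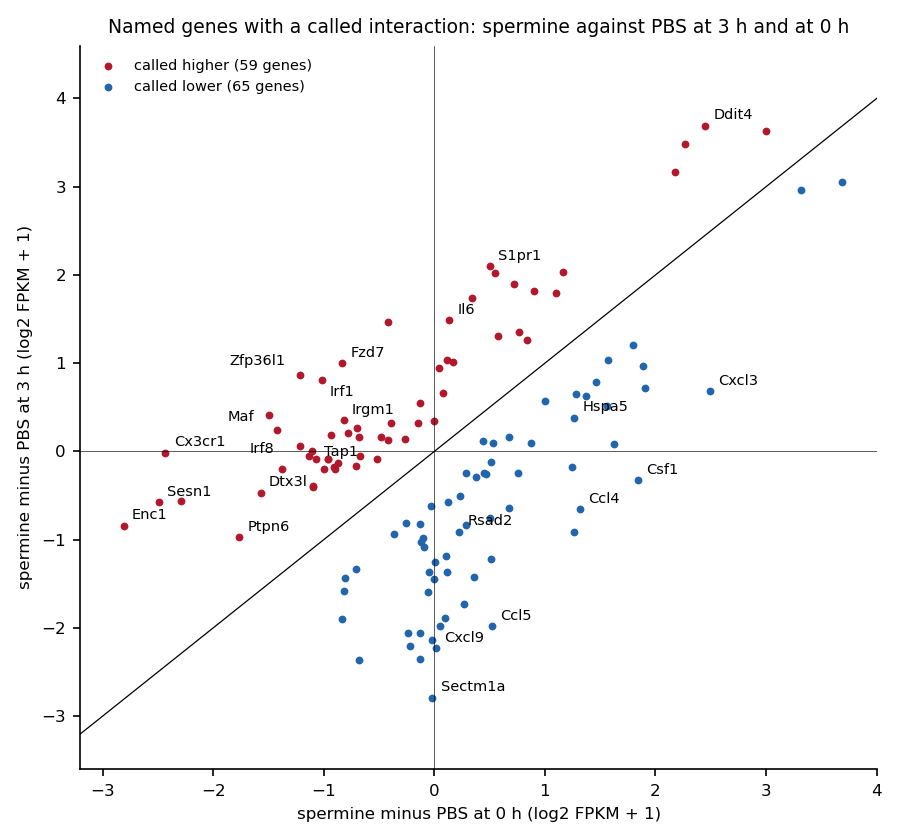
Difference between spermine and PBS (log2 FPKM + 1) at 3 h on the vertical axis and at 0 h on the horizontal axis for the 124 named genes with a called interaction, red where it is higher and blue where it is lower. The interaction is the vertical distance from the diagonal: Cxcl9 and Sectm1a lie below 0 on the vertical line, where only the 3 h levels differ, and Cx3cr1 lies on the horizontal line, where only the 0 h levels differ.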

How the data were processed

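The authors deposited FPKM values for 54532 genes in 8 libraries with gene lengths and positions. Per the submitters' processing notes, the tools were HISAT2 2.0.5, featureCounts 1.5.0-p3, fastp, CASAVA 1.8 and DESeq2 1.20.0 and the builds GRCm38 and mm10, with no role or order given. Per the labels' protocol, poly-T beads selected the mRNA, and random hexamers primed the cDNA. It names blood as source where the sample labels give macrophages. The sources used here do not give the strand or the counting of shared reads.

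The product of deposited FPKM and gene length was a whole multiple of 1 step per library for 100% of values (tolerance 0.001 read), so reads were rebuilt by division, 15723437 to 17744844 per library. These totals set how precisely low genes are measured. Where rows share a symbol, the row with most reads bore it, which left 103 rows aside.

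Log2(FPKM + 1) of the 11421 genes entered a limma 3.58.1 model (data.table version 1.17.8, R 4.3.3) of 4 group means, with an intensity trend, 4 residual and 2.83 prior degrees of freedom. The contrast was (spermine 3 h minus spermine 0 h) minus (PBS 3 h minus PBS 0 h). Tests are two-sided, with Benjamini-Hochberg adjustment over all genes and calls at an adjusted p under 0.05. The scale understates changes of genes near or below 1 FPKM, and those values depend on the pseudocount. The fit was also run on simulated data with a set spread. It recovered 17 of 67 interactions of 1.5-fold, 63 of 67 of 2-fold and 66 of 66 of 4-fold. These were placed only in genes with a simulated mean of at least 5 FPKM, and every gene had the same dispersion setting. Recovery among genes at smaller levels was not measured. The fit also called 32 of 11221 unchanged genes, a larger share of its calls than the 0.05 aimed at. Tables and figures used Python 3.11.15, numpy 2.4.6, pandas 2.3.3 and matplotlib 3.10.9.

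Named genes are 24 always given, then the 10 protein-coding genes with the largest interaction in each direction among called genes with a group mean of at least 10 FPKM and 1 sign in all 16 choices of 1 library per group, and up to 3 called members per direction of each of 32 lists. Other members are named to complete a list's description and were chosen after their values were seen. A gene of the rule is not reported here. Members, lists and the rule were chosen with earlier results of these data known. Alternatives were pseudocounts of 0.1 and 5, no filter, a filter at 5 FPKM, TPM rescaling, quantile normalization, limma voom on rebuilt reads, no trend, a robust trend, a replicate block, and leaving out each library.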

Additional observations from a re-analysis of the deposited data

Results flagged for a closer look

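The interaction is itself a test of whether the response to IFN-β differs between macrophages given spermine and macrophages given PBS. Each called result is listed here because the 2 responses differ by that test (limma), whether or not its call was stable. Genes called higher numbered 665 and genes called lower 885. In the interferon pathway the called values were 0.44 for Ifnar1, 0.47 for Ifnar2, 0.71 for Stat2, 0.54 for Irf9, 1.83 for Irf1 and -1.79 for Socs1. Among the other genes always named they were -0.88 for Mx1, -1.13 for Rsad2, -2.25 for Cxcl9, -0.99 for Cxcl10, -2.50 for Ccl5, 1.36 for Il6 and -1.26 for Nos2. The largest positive values, at a mean of at least 10 FPKM in a group, were 2.42 for Cx3cr1, 2.08 for Zfp36l1, 1.97 for Enc1, 1.92 for Sesn1, 1.90 for Paqr7, 1.89 for Slc26a11, 1.83 for Fzd7, 1.73 for Dusp7 and 1.67 for Maf. The largest negative values were -2.77 for Sectm1a, -2.22 for I830077J02Rik, -2.18 for Mmp13, -2.17 for Csf1, -2.03 for Lipg, -2.0 for Scimp, -1.99 for Serpina3g and -1.98 for P2ry12. As given above, the calls of Ifnar1, Ifnar2, Stat2, Irf9, Socs1, Mx1, Cxcl9, Cxcl10, Il6 and Nos2 were not stable. Those of Sectm1a, Serpina3g and P2ry12 were not stable either, and voom turned Il6 to -1.12. No cause of these differences was tested.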

How the results depend on the processing

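The main fit called 1550 genes, and 367 of them (176 higher, 191 lower) were called in it and in all 17 alternatives that cover every tested gene. Without a single library the count lay between 520 and 1671, with 222 to 688 higher and 298 to 983 lower, and 444 main calls were kept in all 8 such fits. TPM rescaling gave 1005 higher and 492 lower genes, and 1140 main calls kept call and sign. At 1 log2 unit or more, higher genes numbered 249 with a pseudocount of 0.1, 43 with a pseudocount of 5, 357 after TPM rescaling and 279 with voom, and lower genes 82 with a pseudocount of 5, which shrinks low genes by construction. Other counts stayed within 1.5 times the main one. Under voom 4 called genes of the 135 chosen by the naming rule turned sign, Il6 at -1.12, Ifi205 at 0.14, Spry3 at 0.40 and P2ry13 at 0.48, and the cause was not tested. Over these 135 genes and all alternatives, 1896 of 2422 values kept their direction and side of the threshold, 501 called values lost the call, 11 values gained one, and 10 values turned sign in genes without a call in either fit. With 2 libraries per group, a median standard error of 0.157 and reads of 15723437 to 17744844 per library, interactions of genes near 1 FPKM are the least certain. Fits with edgeR and DESeq2 were not run, since the deposited values are FPKM, and the trimmed-mean scaling used for voom was computed directly.

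The sample titles begin with BM1 or BM2 in every group, which gave the replicate numbers, and do not say what these stand for. The replicate numbers are not shown to pair libraries, and whether the main fit leaves out a pairing was not settled. Replicate deviations of 2 groups correlated, over 11421 genes, between -0.126 (spermine 3 h with spermine 0 h) and 0.371 (spermine 0 h with PBS 3 h). Over the 6134 genes with a mean of at least 5 FPKM, spermine 3 h correlated with the other groups between -0.296 and -0.242, and the other groups among themselves between 0.436 and 0.629. With the replicate number as a block 1813 genes were called, 769 higher and 1044 lower, and 1493 main calls were kept with their sign.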
